A study of Rattus norvegicus with 6 samples.

Results

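The genes described here encode the machinery of the synaptic vesicle and of transmitter release. The set is a list of 32 named genes, and its members are all array probes whose single gene symbol in the platform annotation is one of these names. For 28 of the 32 genes there was such a probe, with 41 probes in all among the 33849 of the series table, and all 41 could be tested. Syngr1, Sv2c, Syt1 and Unc13a had no probe with that single symbol and were not analysed here, so the synaptotagmin of most forebrain synapses and the Munc13 priming factor of the list are outside the values below. Both groups are brainstem cells in culture, from SHR (the spontaneously hypertensive rat, an inbred line whose blood pressure climbs without treatment) and from WKY (Wistar Kyoto, its normotensive control from related stock). Each strain has 3 single-colour CodeLink arrays, and each array carries RNA of cells pooled from 3 dishes. The labels used here name no treatment, age or sex for either strain, and leave unsaid if pools of 1 strain were separate litters or culture days, so p-values measure only the spread between these pools.

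A synaptic vesicle is filled with transmitter through the gradient of a proton pump, tethered by synapsins, and docked at the active zone by Rab3 and its effectors and by large scaffold proteins. Fusion is driven by SNARE proteins, with synaptobrevin on the vesicle and syntaxin and SNAP-25 on the plasma membrane, held by complexin until calcium binds synaptotagmin. The SNARE complex is then taken apart by NSF with its SNAP adaptors, and the vesicle membrane is retrieved by amphiphysin, endophilin and dynamin. In brainstem neurons this machinery serves the transmission that sets sympathetic outflow and breathing. Because each array measures RNA of a mixed culture, fewer neurons and less RNA per neuron cannot be told apart in any value below.

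All intensities below are on the scale of the submitters' quantile normalization, where the median spot above 0 reads 520 units on every array. Before that normalization the array medians lay between 439 and 571 units. Arrays correlated at 0.969 to 0.980 within a strain and at 0.964 to 0.977 across the strains (Pearson, log2 scale, over probes, which are not independent replicates). Differences are SHR minus WKY in log2 intensity with their standard error (SE) from limma, and a gene with several probes is given at its brightest probe unless another is named. No probe of the 33249 tested passed an adjusted p of 0.05 in limma, and 2545 (7.65%) had an unadjusted p under 0.05. The number of arrays limits the precision, and the median SE of the 28 genes was 0.18, close to the 0.17 of all 12082 named genes.

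Most of the release genes were dimmer in SHR, by small amounts. The difference lay below 0 at 21 of 28 genes (75%), against 50.2% of named genes and 51.6% of all probes, and the median of the 28 was -0.15, against -0.0099 over all probes. The list was chosen with earlier results of these data known, so the shares here and below are not an independent test of it. With intensities not normalized between arrays 14 of 28 were below 0, where 26.6% of named genes and 33.7% of all probes were, and the median was -0.002, where that of all probes was 0.12. None passed after adjustment over all probes, where the smallest adjusted p among the 41 probes was 0.538 in limma. At an unadjusted p under 0.05 there were 5 of 28 genes (17.9%, against 7.65% of all probes and 6.85% of named genes). These were Vamp1, Rab3a and Amph, lower in SHR, and Sv2b and Syn2, higher in SHR. The shares in each direction were 4.01% lower and 3.65% higher over all probes, and 3.4% lower and 3.45% higher over named genes. When intensities were centred on each array's median in place of quantile normalization, 4 genes had an unadjusted p under 0.05. In that fit 7.99% of all probes and 6.92% of named genes did. The 4 genes, Vamp1, Rab3a, Snap25 and Dnm1, were all lower in SHR, and Amph, Sv2b and Syn2 were not among them. Without normalization between arrays there were 2, Sv2b and Dnm1 (7.1% of all probes and 6.37% of named genes in that fit). Leaving out 1 array gave 1 gene without SHR 3 (5.34% of all probes in that fit), 2 without SHR 1 (6.31%) or WKY 2 (6.9%), 3 without WKY 3 (5.53%) or WKY 1 (11%), and 4 without SHR 2 (10.9%). Vamp1 was among the genes counted in each of these 6 fits, and Sv2b in 1, that without WKY 2.

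The 3 SHR values lay wholly to one side of the 3 WKY values at 6 of the 26 genes measured on all 6 arrays (23.1%, against 13.4% of all such probes and 13.9% of named genes at their brightest probe). Vamp1, Rab3a, Amph, Sh3gl2 and Atp6v0a1 were lower in SHR (19.2% of the 26, against 7.3% of all probes), and Sv2b was higher (against 6.07% of all probes and 6.62% of named genes). Fewer arrays separate more often: without SHR 2 the strains separated at 15 of the 26 genes (57.7%, against 29.8% of all probes), and without WKY 1 at 12 (46.2%, against 31.1%). Without normalization between arrays they separated at 2 genes, Sv2b and Snap25, and with median centring at 5, namely Vamp1, Rab3a, Amph, Snap25 and Dnm1. The share of all probes with separated strains was not computed under these settings, so these counts have no background to be read against. The sizes were modest: 22 of 28 differences were under 0.5 in size, and at 20 of 28 genes the 95% interval of the difference excluded a 2-fold change in either direction. The same shares over named genes were not computed, so these 2 counts do not set the list apart from other genes.

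**Figure D1:**
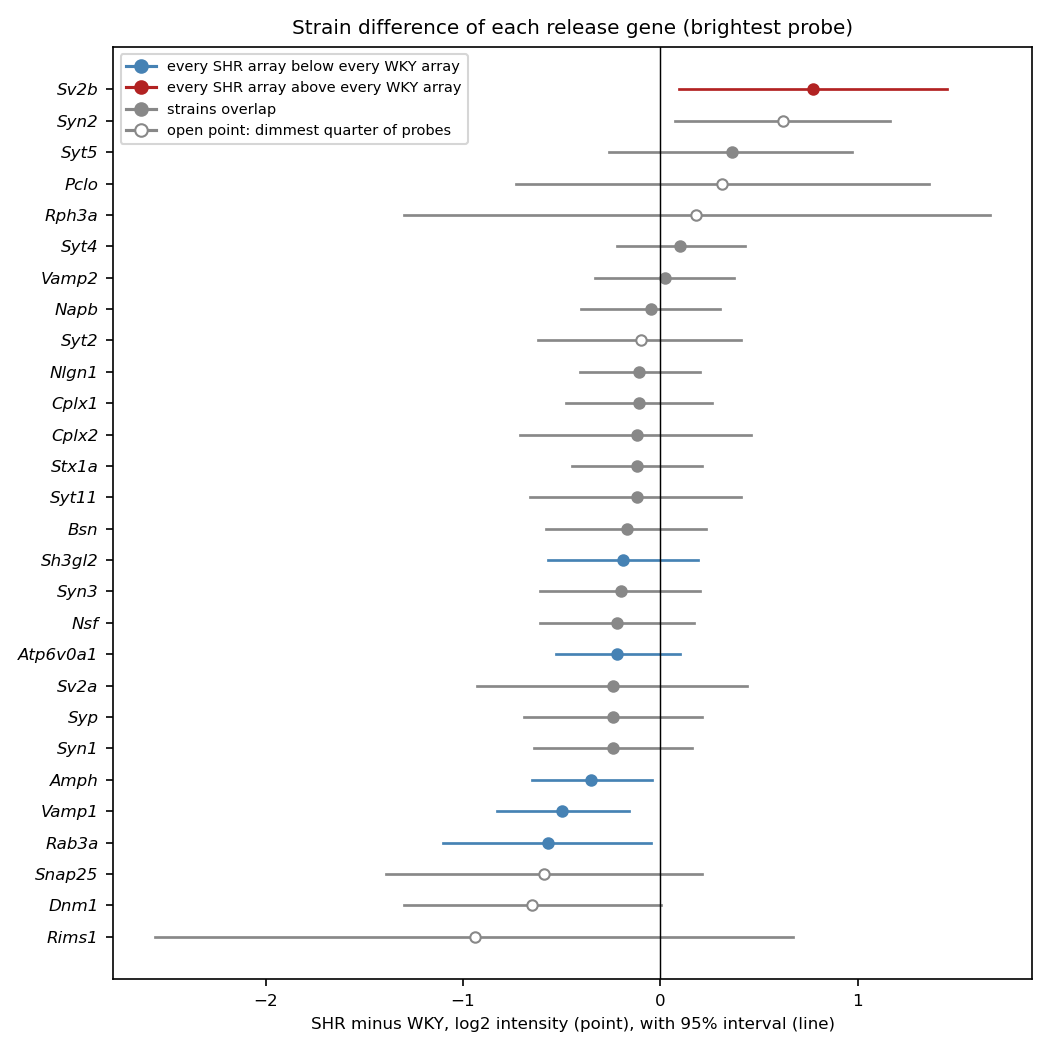
Difference between the strains at each of the 28 release genes, as SHR minus WKY in log2 intensity at the brightest probe, with its 95% interval from limma. Of the 28 points, 21 lie left of 0, and the intervals of Vamp1, Rab3a, Amph, Sv2b and Syn2 leave out 0 before any adjustment. Blue points are genes whose SHR arrays all lie below the WKY arrays, red the reverse and grey an overlap, and open points mark the 7 genes whose probe is among the dimmest 25% of probes, where intervals are wide.

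The DNA just before the start of the 6 genes with separated strains is shown so that these members can be compared in sequence. At 3 of them, Rab3a, Atp6v0a1 and Sh3gl2, the gap between the strains was 0.692%, 1.2% and 2.63% of the nearer WKY array. Each run is the 250 bases before the RefSeq start of the gene in assembly GRCr8, read 5′ to 3′ on the gene's strand. The bases are those of the reference assembly and were not read from these SHR or WKY cultures. Capitals mark the cyclic AMP response element TGACGTCA, the binding motif of CREB, and the GC box GGGCGG or its other strand CCGCCC, the motif of Sp1. Vamp1 lies at chr4:159698644-159698893 (plus strand), Rab3a at chr16:18722274-18722523 (minus), Amph at chr17:50678502-50678751 (minus), Sh3gl2 at chr5:104699020-104699269 (plus), Atp6v0a1 at chr10:86435891-86436140 (plus) and Sv2b at chr1:138562259-138562508 (minus).
Vamp1: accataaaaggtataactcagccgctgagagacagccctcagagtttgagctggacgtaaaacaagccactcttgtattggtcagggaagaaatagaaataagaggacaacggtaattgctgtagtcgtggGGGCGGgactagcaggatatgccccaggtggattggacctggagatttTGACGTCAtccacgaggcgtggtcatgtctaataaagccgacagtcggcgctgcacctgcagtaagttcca
Rab3a: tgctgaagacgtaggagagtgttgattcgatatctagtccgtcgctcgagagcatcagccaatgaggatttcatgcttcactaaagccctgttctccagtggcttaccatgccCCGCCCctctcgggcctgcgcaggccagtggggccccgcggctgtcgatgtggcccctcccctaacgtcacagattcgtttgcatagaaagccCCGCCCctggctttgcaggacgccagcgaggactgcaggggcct
Amph: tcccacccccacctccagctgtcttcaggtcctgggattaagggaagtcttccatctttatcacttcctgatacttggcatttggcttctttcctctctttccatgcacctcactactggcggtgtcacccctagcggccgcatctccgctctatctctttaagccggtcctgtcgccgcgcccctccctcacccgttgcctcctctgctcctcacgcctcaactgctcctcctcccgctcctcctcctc
Sh3gl2: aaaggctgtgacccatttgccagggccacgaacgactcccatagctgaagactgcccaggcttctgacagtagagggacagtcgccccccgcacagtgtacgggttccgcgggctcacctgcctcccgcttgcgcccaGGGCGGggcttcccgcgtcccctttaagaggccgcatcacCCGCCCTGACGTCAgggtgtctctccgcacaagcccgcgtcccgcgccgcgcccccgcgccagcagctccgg
Atp6v0a1: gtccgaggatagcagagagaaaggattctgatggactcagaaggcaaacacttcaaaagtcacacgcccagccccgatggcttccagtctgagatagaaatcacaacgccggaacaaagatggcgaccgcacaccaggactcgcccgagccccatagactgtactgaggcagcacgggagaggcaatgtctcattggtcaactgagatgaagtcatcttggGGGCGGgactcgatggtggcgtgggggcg
Sv2b: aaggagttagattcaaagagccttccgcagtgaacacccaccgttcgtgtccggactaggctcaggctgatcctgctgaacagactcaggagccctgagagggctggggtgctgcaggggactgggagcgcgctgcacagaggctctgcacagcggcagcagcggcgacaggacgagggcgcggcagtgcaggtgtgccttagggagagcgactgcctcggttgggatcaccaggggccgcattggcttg

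The 6 runs differ in these motifs. Vamp1 has 1 cyclic AMP response element and 1 GC box, Sh3gl2 has 1 and 2, Rab3a has 2 GC boxes and Atp6v0a1 has 1. The runs of Amph and Sv2b hold neither set of letters. Of the 32 listed genes, measured or not, all but Snap25, Syt5, Syn3 and Syngr1 had an entry in the RefSeq promoter table, which left 28. TGACGTCA, a palindrome that reads alike on both strands, stood before 3 of the 28 (Vamp1, Sh3gl2 and Syn1), or 10.7%, against 1.89% of 21842 protein-coding genes. The GC box stood before 19 of the 28 (67.9%, against 38.9%). TATAAA, searched with TTTATA on the other strand, stood before 0 of the 28, against 12.1% of protein-coding genes. These matches describe the sequence and were not tested as sites. Of Sv2b and Syn2, the genes with an unadjusted p under 0.05 and a higher level in SHR, Syn2 holds a GC box and Sv2b does not.

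Among the SNARE genes, Vamp1 gave the smallest p of the whole list. It encodes synaptobrevin 1, the vesicle SNARE that prevails in the brainstem and spinal cord. Its intensity was 707, 836 and 669 in SHR against 986, 1081 and 1043 in WKY (replicates 1, 2 and 3 in each strain). The highest SHR array thus stayed under the lowest WKY array. On the log2 scale this was 9.52 ± 0.17 (SD, n = 3) against 10.02 ± 0.067, a difference of -0.50 ± 0.14 (SE), or 1.41-fold higher in WKY (unadjusted p = 0.0103, adjusted p = 0.538 in limma). Its second probe read 229, 406 and 258 in SHR against 339, 533 and 239 in WKY, and there the strains overlapped (-0.28 ± 0.35). Without normalization between arrays the first probe differed by -0.31.

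Vamp2, synaptobrevin 2, the vesicle SNARE of most forebrain synapses, did not follow Vamp1 at its brightest probe. That probe read 2097, 2372 and 2709 in SHR against 2504, 2225 and 2298 in WKY (0.025 ± 0.15). The other probe of Vamp2 read 1302, 1402 and 909 in SHR against 1373, 1543 and 1682 in WKY (-0.37 ± 0.20). The strains overlap at both probes, and the direction of this gene depends on the probe. Stx1a, syntaxin 1A of the plasma membrane, read 654, 778 and 637 in SHR against 709, 738 and 798 in WKY (-0.12 ± 0.14). Its SHR 2 value was above 2 of the 3 WKY values.

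Snap25, the third partner of the complex and a common marker of mature presynaptic terminals, was dim on every array. Its only probe read 38.5, 56.1 and 36.9 units in SHR and 52.6, 104 and 49.6 in WKY. WKY 2 stands apart, and the difference of -0.59 ± 0.33 was -0.25 without it. The complexins clamp the assembled SNARE complex. Cplx1 read 754, 780 and 680 in SHR against 699, 933 and 773 in WKY at its brightest probe (-0.11 ± 0.15). At its second probe it read 644, 730 and 566 in SHR against 742, 994 and 868 in WKY, with the strains apart (-0.42 ± 0.17, unadjusted p = 0.0442, adjusted p = 0.643 in limma). Cplx2 differed by -0.12 ± 0.24, with the lowest value of each strain on replicate 1 (909 and 925 units).

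The strains overlapped at the genes whose products take the SNARE complex apart. Nsf, the ATPase that does this work, read 2665, 3619 and 2828 in SHR against 3320, 3794 and 3417 in WKY (-0.22 ± 0.16), and -0.13 ± 0.13 at its other probe. Napb, the neuronal SNAP adaptor that brings NSF to the complex, read 646 to 821 units over the 6 arrays (-0.048 ± 0.15).

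**Figure D2:**
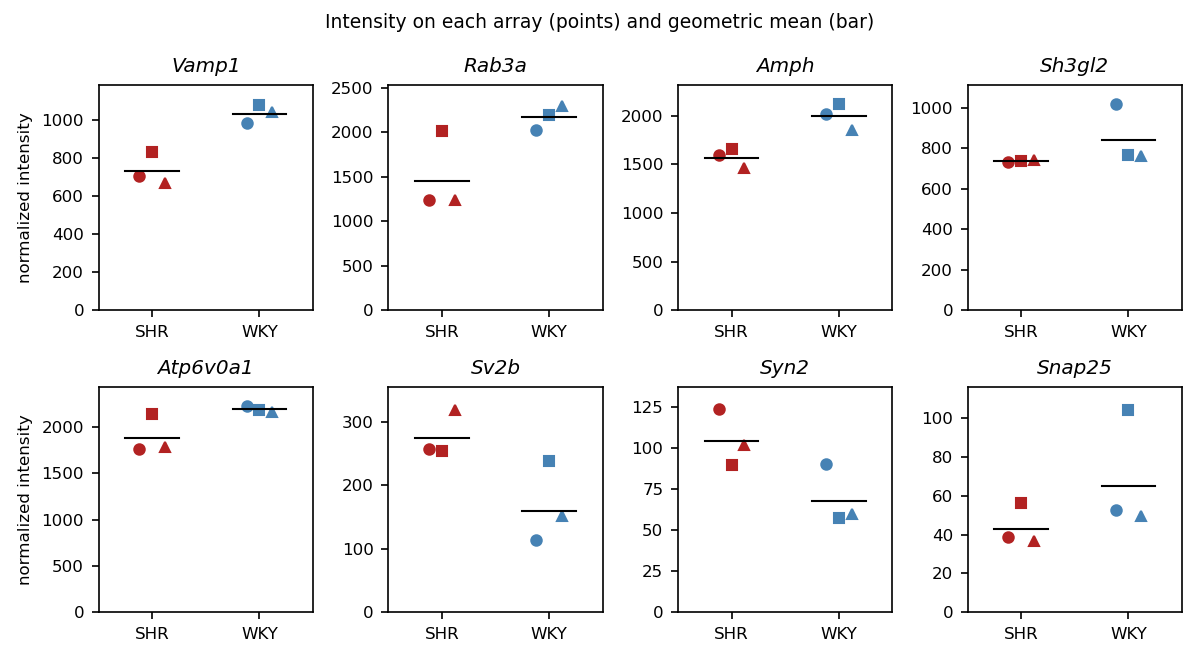
Normalized intensity, on a linear axis from 0, of the 6 genes whose strains separate and of Syn2 and Snap25. Circles, squares and triangles are replicates 1, 2 and 3, and bars are geometric means of 3 arrays. Vamp1 reads 669 to 836 in SHR and 986 to 1081 in WKY, while at Rab3a and Atp6v0a1 SHR 2 lies just under the WKY arrays. Snap25 lies between 36.9 and 104 units.

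At the active zone, Rab3a showed the same order of strains at both of its probes. It encodes the small GTPase that sits on synaptic vesicles and recruits them to release sites. Its brightest probe read 1241, 2010 and 1234 in SHR against 2024, 2188 and 2295 in WKY. SHR 1 and SHR 3 were nearly equal and far below WKY, while SHR 2 was 14 units (0.692%) short of the lowest WKY array. Log2 levels were 10.51 ± 0.40 (SD, n = 3) for SHR against 11.08 ± 0.091 for WKY. The difference of -0.57 ± 0.22 is 1.49-fold higher in WKY (unadjusted p = 0.0372, adjusted p = 0.626 in limma). The second probe read 443, 535 and 364 in SHR against 624, 508 and 597 in WKY (-0.38 ± 0.18), with SHR 2 inside the WKY range. The difference at the first probe was -0.81 without SHR 2 and -0.46 without SHR 1 or without SHR 3.

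At the scaffolds and Rab3 effectors of the active zone the strains overlapped, and 3 of the 4 genes were dim. Bsn, the scaffold bassoon, had 4 probes, and its brightest read 1379, 1965 and 1556 in SHR against 1761, 1982 and 1738 in WKY (-0.17 ± 0.17). Its other probes gave -0.076 ± 0.16, -0.022 ± 0.19 and 0.016 ± 0.42. Rims1, which links Rab3 to calcium channels, read 80.6, 81 and 110 in SHR against 69, 489 and 152 in WKY. WKY 2 stood far above the other arrays. This was the widest spread of any member, 2.83 on the log2 scale within WKY, and the difference of -0.94 ± 0.67 was -0.19 without WKY 2 and -1.61 without WKY 1. Pclo, the scaffold piccolo, read 64, 53.7 and 135 in SHR against 59.1 and 65.5 on WKY 1 and WKY 2, and its WKY 3 entry was not above 0 and was left out of the fit (0.31 ± 0.42, n = 3 and 2). Rph3a, rabphilin, an effector of Rab3, read 111, 141 and 68.1 in SHR against 166 and 48.6 on WKY 1 and WKY 3, with WKY 2 not above 0 and left out (0.18 ± 0.59, n = 3 and 2). Before normalization these 2 missing entries were 21.8 units for Pclo and 7.33 for Rph3a, so both were low signals. With those values kept, in the alternatives built from intensities before normalization, Pclo differed by 0.62 to 0.88 and Rph3a by 1.20 to 1.46.

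Among the synaptotagmins, the calcium sensors of the vesicle, the strains overlapped at each of the 4 genes measured. Syt5, a sensor found on dense-core as well as synaptic vesicles, read 2899, 2207 and 3872 in SHR against 2870, 1966 and 2095 in WKY (0.36 ± 0.25). The SHR 3 value was the highest of the 6, and the difference was 0.15 without it and 0.56 without SHR 2. Syt4, an isoform that does not bind calcium in the usual way, was among the most even members, at 1480, 1787 and 1492 in SHR against 1525, 1435 and 1452 in WKY (0.10 ± 0.13), and 0.0076 ± 0.13 at its other probe. Syt11, a related isoform that acts in vesicle retrieval, read 956, 1132 and 829 in SHR against 1391, 952 and 874 in WKY (-0.12 ± 0.22), with -0.22 ± 0.32 at the second probe, where WKY 1 was again the highest array. Syt2, the fast sensor typical of hindbrain synapses, was dim, at 88.8, 126 and 89.3 in SHR against 95.7, 133 and 97.8 in WKY (-0.10 ± 0.21). In both strains replicate 2 was its highest array.

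The vesicle membrane genes held the largest difference towards SHR. Sv2b, a glycoprotein that tunes release, read 257, 254 and 319 in SHR against 114, 239 and 152 in WKY. All SHR arrays were above all WKY arrays, although WKY 2 was only 15 units lower than SHR 2. Log2 levels were 8.10 ± 0.19 (SD, n = 3) for SHR against 7.33 ± 0.54 for WKY. The difference of 0.77 ± 0.28 is 1.71-fold higher in SHR (unadjusted p = 0.0313, adjusted p = 0.609 in limma). It was 0.53 without WKY 1 and 1.06 without WKY 2.

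Its relative Sv2a, the form present on nearly all synaptic vesicles, pointed the other way without separating. Sv2a read 4761, 6353 and 4053 in SHR against 4087, 7543 and 6613 in WKY (-0.24 ± 0.28), and 0.059 ± 0.15 at its other probe. The first difference was -0.51 without WKY 1, -0.42 without SHR 2, -0.16 without WKY 3, -0.10 without SHR 3 and -0.066 without WKY 2. Syp, synaptophysin, the abundant vesicle protein used as a stain for synapses, read 435, 605 and 435 in SHR against 510, 647 and 571 in WKY (-0.24 ± 0.18). SHR 1 and SHR 3 lay below all WKY arrays and SHR 2 between them. Atp6v0a1, the neuronal a subunit of the proton pump that energises vesicle filling, read 1757, 2133 and 1781 in SHR against 2226, 2174 and 2159 in WKY. Its strains separated, by a margin of 26 units between SHR 2 and WKY 3, with a difference of -0.22 ± 0.13 (unadjusted p = 0.152, adjusted p = 0.716 in limma).

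The synapsins, which tether vesicles in the reserve pool, pointed in different directions. Syn1 read 791, 685 and 582 in SHR against 854, 711 and 850 in WKY at its brightest probe (-0.24 ± 0.17). A second probe of the same transcript gave 246, 512 and 264 in SHR against 392, 418 and 380 in WKY (-0.30 ± 0.29), with SHR 2 the highest of all 6 arrays there. Syn3, the isoform of developing neurons, read 1507, 1661 and 1145 in SHR against 1630, 1638 and 1639 in WKY (-0.20 ± 0.17), and SHR 3 alone lay far from the rest. Syn2 went the other way, at 124, 89.6 and 102 in SHR against 90.3, 57.8 and 59.9 in WKY. Its difference was 0.62 ± 0.23, or 1.54-fold higher in SHR (unadjusted p = 0.0312, adjusted p = 0.609 in limma). SHR 2 fell just under WKY 1, so the strains overlapped, and the probe is among the dimmest 25%. With an offset of 50 units before log2 its difference was 0.38.

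The 3 endocytosis genes were all lower in SHR. Amph, amphiphysin, which senses membrane curvature and recruits dynamin, read 1598, 1657 and 1461 in SHR against 2022, 2118 and 1858 in WKY. Both strains were tight, and the gap between them was 201 units. The difference was -0.35 ± 0.13, or 1.27-fold higher in WKY (unadjusted p = 0.0319, adjusted p = 0.609 in limma), with log2 levels of 10.62 ± 0.094 (SD, n = 3) for SHR against 10.96 ± 0.10 for WKY. The other probe of Amph did not share it, at 688, 968 and 872 in SHR against 965, 853 and 765 in WKY (-0.038 ± 0.18). The mean of both probes differed by -0.19, and the first probe without normalization between arrays by -0.16.

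Sh3gl2, endophilin A1, which bends the neck of the budding vesicle, read 733, 737 and 740 in SHR against 1017, 766 and 760 in WKY. The strains were 20 units apart, and the difference of -0.19 ± 0.16 was -0.051 without WKY 1. Dnm1, dynamin 1, the neuronal GTPase that cuts the vesicle free, read 120, 76.2 and 69 in SHR against 174, 125 and 111 in WKY. SHR 1 lay inside the WKY range, and the difference was -0.65 ± 0.27 (unadjusted p = 0.0512, adjusted p = 0.655 in limma), on a probe among the dimmest 25%. It was -0.89 without SHR 1 and -0.46 without WKY 1. The 1 adhesion gene of the list, Nlgn1, which encodes neuroligin 1 on the postsynaptic side, read 701 to 869 units over the 6 arrays (-0.11 ± 0.13).

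**Figure D3:**
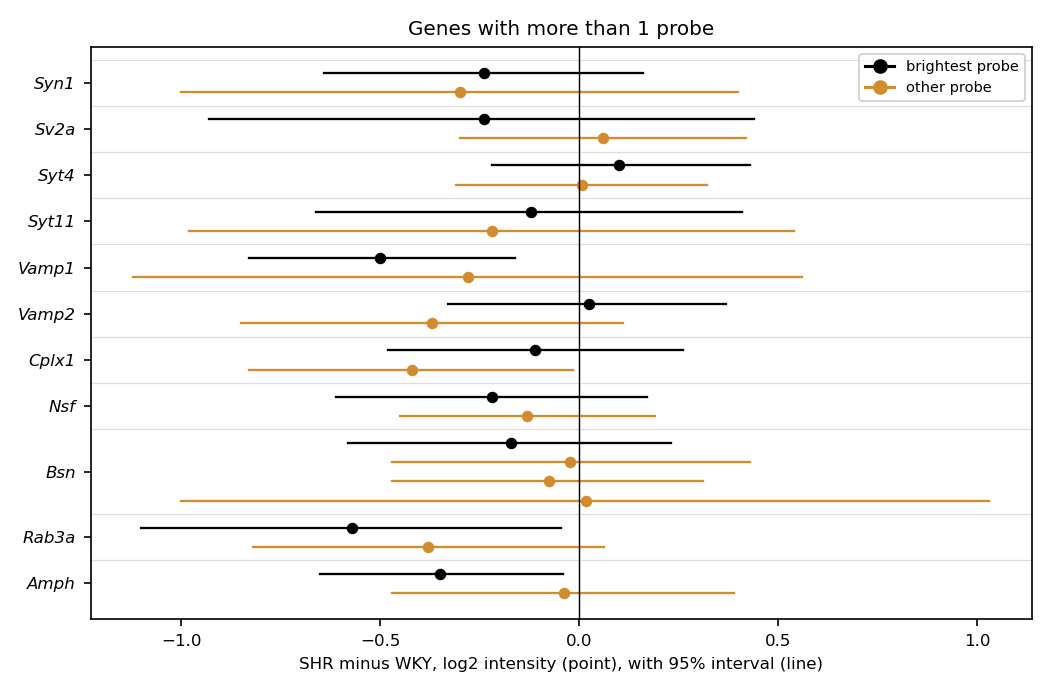
Difference between the strains at each probe of the 11 release genes with more than 1 probe, as SHR minus WKY in log2 intensity with 95% intervals. The probes of a gene share the sign at 8 of 11 genes, and those of Sv2a, Vamp2 and Bsn lie on both sides of 0. The brightest probes of Vamp1, Rab3a and Amph and the dimmer probe of Cplx1 have intervals that leave out 0 before adjustment.

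For 17 of the 28 genes there was 1 probe, so no second reading exists. Of the 11 with several, 8 had the same sign at every probe. Over single probes, 31 of 41 differences lay below 0 (against 51.6% of all probes). An unadjusted p under 0.05 in limma was found at 6 of the 41 (against 7.65% of all probes). The strains separated at 7 of the 39 probes measured on all 6 arrays (against 13.4% of all such probes). No gene had an unadjusted p under 0.05 at more than 1 probe. The second probe of Rab3a had an unadjusted p of 0.0807 (adjusted p = 0.676 in limma).

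The SHR arrays differed among themselves. Of the 26 genes measured on all arrays, 20 had their lowest value on SHR 1 or SHR 3 (76.9%, against 34.8% of named genes), and 0 had it on SHR 2 or WKY 3. SHR 2 was above both other SHR arrays at 15 of the 26 (57.7%, against 35.6% of named genes). WKY 2 was the highest array at 11 of the 26 (42.3%, against 16.1%). These counts were made after the values were seen and carry no test. The mean of the 26 genes, each centred on its own mean, was -0.13, 0.028 and -0.14 in SHR against 0.016, 0.20 and 0.026 in WKY. By this mean SHR 2 fell among the WKY arrays, and the other SHR arrays lay below them all.

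**Figure D4:**
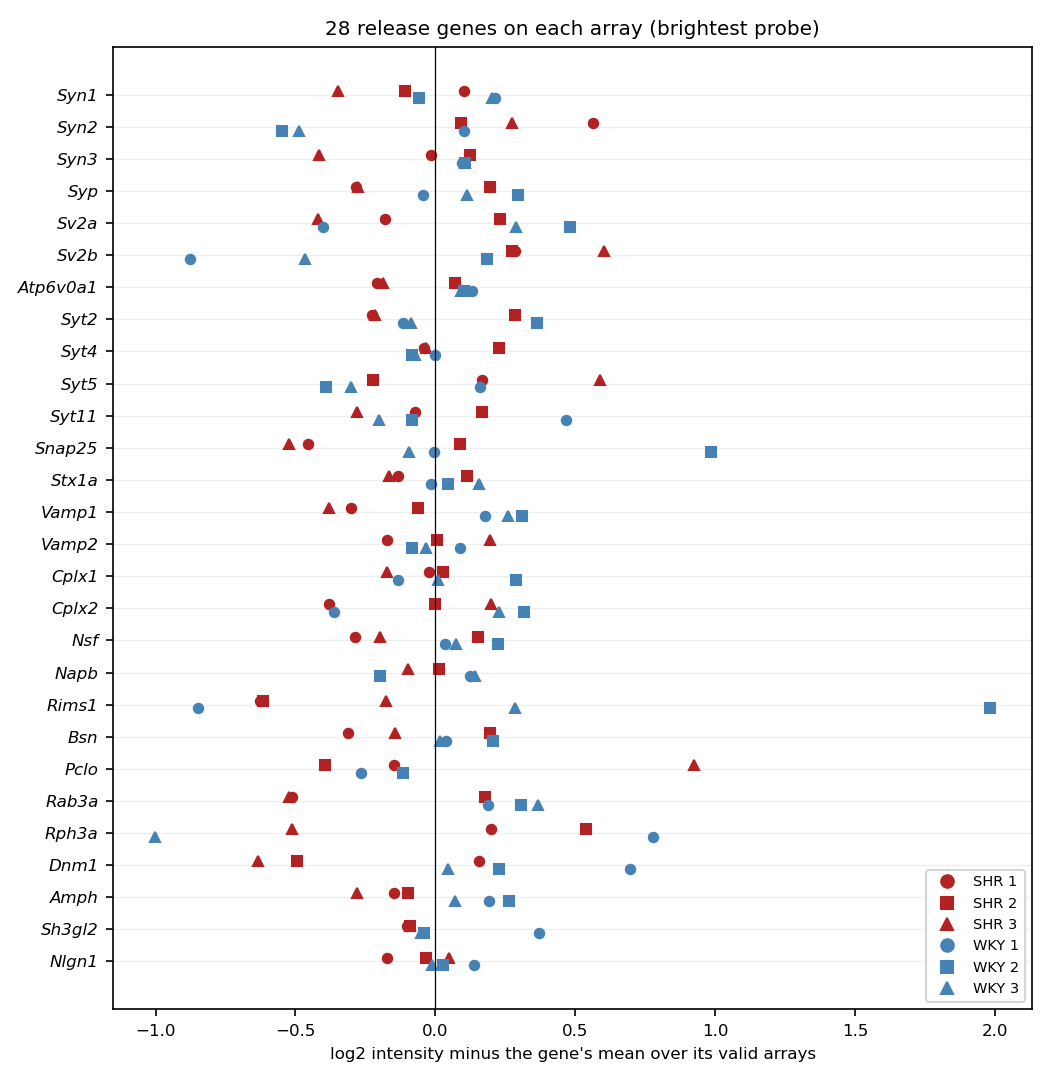
Log2 intensity of the 28 release genes on each array, each gene centred on its mean over its valid arrays, with SHR in red and WKY in blue. Red circles and triangles (SHR 1 and SHR 3) hold the lowest value at 20 of the 26 genes measured on all 6 arrays. The isolated blue square of Rims1 is WKY 2, at 489 units.

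Markers of neurons varied between the arrays in a similar way. Of 18 neuron markers, which leave out the release genes, 13 were tested, and all 13 were measured on all 6 arrays, while Rbfox3, Map2 and Tubb3 were among the 5 without a probe of that single symbol. Their mean centred level was -0.26, 0.28 and -0.26 in SHR against -0.078, 0.25 and 0.073 in WKY. Their difference was below 0 at 8 of 13 (against 50.2% of named genes), with a median of -0.13. An unadjusted p under 0.05 in limma was found at 1 of the 13 (Nefh), against 6.85% of named genes. The strains separated at 2 of the 13 (Nefh and Stmn2), against 13.9% of named genes, and both were higher in SHR. The summed intensity of the 13 markers ranged from 61587 to 83254 units in SHR and from 64899 to 83111 in WKY. The mean of the release genes minus that of the neuron markers was 0.13, -0.25 and 0.12 in SHR against 0.093, -0.045 and -0.047 in WKY, where the strains overlap. Of 12 oligodendrocyte lineage markers 11 were tested, and 10 of these were below 0 (against 50.2% of named genes), with a median of -0.76. An unadjusted p under 0.05 in limma was found at Mobp, Cspg4 and Enpp6, all lower in SHR (against 3.4% of named genes), and none passed after adjustment. The strains separated at 2 of the 11 (against 13.9% of named genes), namely Cspg4, lower in SHR, and Pdgfra, higher in SHR. The mean centred level of the 11 markers was -0.51, 0.26 and -0.69 in SHR against 0.24, 0.47 and 0.24 in WKY. Their summed intensity ranged from 64079 to 114825 units in SHR and from 109098 to 125634 in WKY. The part of either cell type in the differences of the release genes was not tested. Median differences of the other marker lists were -0.0077 for astrocytes, -0.072 for microglia and macrophages, 0.031 for endothelial cells, 0.93 for fibroblasts and meninges and 0.96 for ependyma and choroid plexus.

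**Figure D5:**
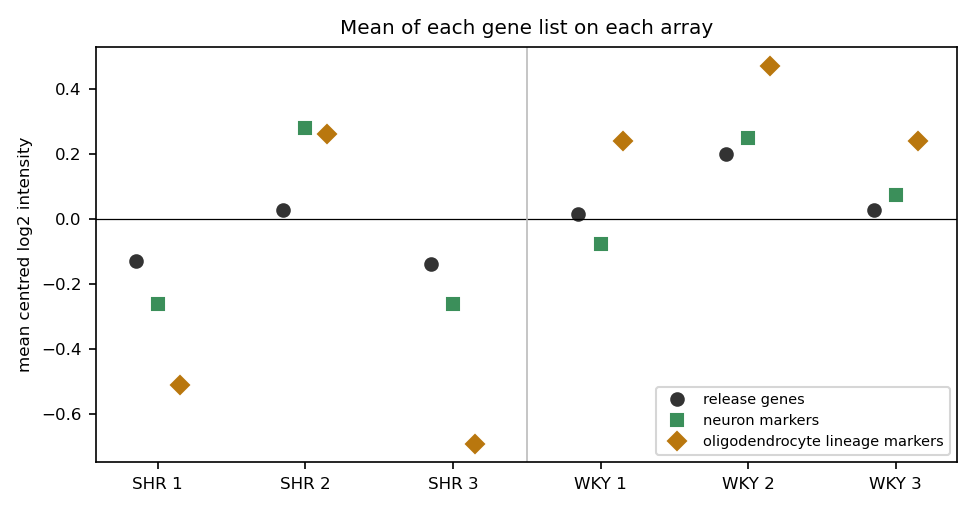
Mean centred log2 intensity of the 26 release genes, the 13 neuron markers and the 11 oligodendrocyte lineage markers on each array. SHR 1 and SHR 3 are the lowest arrays of all 3 lists, at -0.13 and -0.14 for the release genes, and SHR 2 stands above 0 in each list.

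The wider vesicle cycle was nearly balanced between the strains. A list of 137 further genes covered other vesicle membrane proteins, calcium sensors, SNARE proteins, active zone and Rab proteins, endocytosis genes, proton pump subunits and presynaptic adhesion proteins. Of these, 118 were tested, 62 were below 0 (against 50.2% of named genes), and the median difference was -0.034. None passed after adjustment in limma, and 6 had an unadjusted p under 0.05, with 3 lower and 3 higher in SHR. That is 6 of 118, to be read against 7.65% of all probes. Without SHR 2 there were 10 (10.9% of all probes in that fit), and without SHR 3 there were 2 (5.34%). Among the 115 measured on all arrays the strains separated at 7 in each direction (7.3% lower and 6.07% higher over all probes).

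The smallest p of these belonged to Sncg, gamma-synuclein, a small protein of axons and terminals related to alpha-synuclein. It read 2015, 836 and 2900 in SHR against 361, 563 and 512 in WKY. All SHR arrays were above all WKY arrays, with SHR 2 the nearest to them. The difference was 1.85 ± 0.46, or 3.61-fold higher in SHR (unadjusted p = 0.00616, adjusted p = 0.516 in limma). Rab3d, a relative of Rab3a found mostly on granules of secretory cells, read 492, 338 and 467 in SHR against 320, 220 and 224 in WKY (0.77 ± 0.22). Rab3a and Rab3d thus lay on opposite sides of 0, and the difference between them was not tested. Syt6, a synaptotagmin, was dim and higher in SHR (0.43 ± 0.15), and Ston1, the endocytic adaptor stonin 1, overlapped between the strains (0.74 ± 0.35, or 0.45 without WKY 2).

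On the lower side, Atp6v0a2, another a subunit of the proton pump, read 2857, 3385 and 2898 in SHR against 3519, 5865 and 4906 in WKY (-0.62 ± 0.21). Its difference had the sign of that of its neuronal relative Atp6v0a1, while the 17 pump subunits of this list, Atp6v0a2 among them, had a median difference of 0.013. Apba2, an adaptor that binds the syntaxin partner Munc18, differed by -0.45 ± 0.16. Scamp3, a carrier membrane protein, read 10827, 9807 and 10465 in SHR against 12688, 12560 and 14319 in WKY (-0.35 ± 0.13), with the strains apart. Rims3, a short relative of Rims1, was dim, had 2 valid WKY arrays and overlapped between the strains (-1.09 ± 0.48). Its WKY 1 entry, 24.9 units before normalization, was left out, and with it kept in the alternatives built from intensities before normalization the difference was -0.52 to -0.27.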

How the data were processed

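Expression was measured in 6 pooled RNA samples, 3 per strain, on single-colour arrays. Per the labels' design text, the authors took background-subtracted spot intensity from CodeLink Expression Analysis software, excluded measurements under the negative controls plus 2 SD and brought arrays to a common distribution by quantile normalization. No source used here gives the software version. The deposited series table, with 1 intensity column per array, was used, and the deposited per-sample tables, which are not normalized between arrays, served as alternatives. In each column 615 entries are 0 or less, and these were treated as missing. Log2 was taken without an offset, and the 33249 probes that had all 3 values of a strain and 2 or more of the other were tested with limma 3.58.1 (lmFit, eBayes, R 4.3.3, two-sided, Benjamini-Hochberg over all probes), a step tested on simulated data.

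Probes were named through the platform annotation (16753 with 1 symbol, 165 with several, 16931 with none), and the symbol of 1 was updated by Entrez identifier to assembly GRCr8. The members and lists were chosen with earlier results of these data known. By plan, values per array are given for members that separate or have an unadjusted p under 0.05 in limma at any probe. The plan also covers a fixed set of core genes and those of widest spread. Values of several members outside the plan, such as Nsf, Sv2a, Syn3 and Dnm1, are printed too. Of the further vesicle cycle genes, the 4 per direction of smallest p are named. Promoter sequences are those of RefSeq. Figures were drawn with matplotlib 3.10.9.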

Additional observations from a re-analysis of the deposited data

How the results depend on the processing

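The count of probes past an adjusted p of 0.05 in limma, 0, was 5 with probes valid on all 6 arrays, 18 when the dimmest 25% of probes were dropped, 17 with an offset of 50, 28 with an intensity trend and robust prior, 5 with array weights and 13 at an adjusted p of 0.10. Without single arrays it was 0 to 1. None of the 36 genes named here passed at its brightest probe in any of these fits, where their smallest adjusted p was 0.196, without SHR 2. With unnormalized intensities the median of all probes shifts to 0.12, and 7.1% of all probes had an unadjusted p under 0.05. In that fit 2 release genes in place of 5 and 3 further vesicle cycle genes in place of 6 had such a p. The strains separated at 2 release genes in place of 6, and the share of all probes was not computed for that count. The median of the release genes was -0.002, or -0.12 relative to all probes. Averaging the probes of a gene gave 3 release genes with an unadjusted p under 0.05, and no share over all genes was computed there. Without single arrays 1 to 4 release genes and 2 to 10 further vesicle cycle genes had an unadjusted p under 0.05. Over all probes that share was 5.34% to 11%. The separated release genes were 7 to 15, against 19.4% to 31.1% of all probes measured on every array kept. The median difference of the release genes was then -0.26 to -0.13. With an intensity trend and robust prior Syn2 had no unadjusted p under 0.05. Vamp1 kept an unadjusted p under 0.05 in all settings but unnormalized intensities and averaged probes.

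Of 585 values of the 36 named genes under 17 settings, 19 changed sign, at 11 of the 28 release genes. With unnormalized intensities Syt11 was 0.056, Stx1a 0.057, Cplx1 0.074, Cplx2 0.065, Napb 0.13, Bsn 0.01 and Nlgn1 0.076. Without single arrays Syt2 ranged from -0.27 to 0.049, Syt11 from -0.25 to 0.081, Vamp2 from -0.069 to 0.12, Cplx1 from -0.21 to 0.0032, Cplx2 from -0.33 to 0.035 and Napb from -0.16 to 0.013. Averaging the probes of Vamp2 gave -0.17. The cause of each was not tested. A replicate block, with the number as a term, left 0 probes past adjustment. Under it 6 release genes had an unadjusted p under 0.05 in limma, as did 8.42% of all probes and 7.47% of named genes. Snap25 and Dnm1 were added and Amph was lost, and Pclo was -0.085 and Rph3a -0.049. Taken as deviations from the strain mean, SHR and WKY arrays of the same number correlated at 0.0011, 0.22 and -0.129. SHR 2 and WKY 2 were each other's best match across the strains. SHR 1 correlated best with WKY 3 (0.0738), and SHR 3 with WKY 1 (0.268). Whether arrays of the same number share a culture day or a batch is unsaid in the labels and was not tested. Array weights, the prior and the block leave the array values unchanged and so do not bear on which strains separate.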

Other observations

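Markers of the endocrine dense-core vesicle, the larger vesicle that stores peptides and amines and is released by related SNARE and Rab proteins, were level between the strains. Of 9 such genes 8 were tested, and 5 were below 0 (against 50.2% of named genes). The median difference was -0.0049. Of the 8, 0 had an unadjusted p under 0.05 in limma (against 6.85% of named genes) and 0 had separated strains (against 13.9%). Their mean centred level was -0.10, 0.063 and 0.16 in SHR and 0.017, -0.10 and -0.03 in WKY, where SHR 3 was the highest array and SHR 1 among the lowest. For the release genes both of these arrays were the lowest. The difference between the lists was not tested.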
